A study of Mus musculus with 6 samples.

Results

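Solute carrier (SLC) genes were examined in M2c-polarized macrophages from mice with and without the soluble epoxide hydrolase (sEH). The genes were selected on their name and their counts: of 264 protein-coding genes with an Slc symbol in the deposited count table, the 215 whose mean count exceeded 5 were chosen, the mean being taken over both genotypes. They were tested together with all 13785 genes that passed the same filter, of 19309 in the table. The filter used the mean count of both genotypes together, and not their difference. Of the 49 genes left out, 4 had no count in any library and 3 had a mean above 5 counts in 1 genotype. Just inside the filter was Slc39a12, with a mean of 5.50 counts, and just outside it were Slc9a2 and Slc25a47, each with a mean of 4.83 counts.

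The libraries came from bone marrow-derived macrophages of 3 sEH-/- mice, which lack Ephx2 in all cells from birth, and 3 wild-type mice, all between 8 and 10 weeks of age. Cells of both genotypes were cultured for 7 days in GM-CSF and M-CSF, at 15 ng/mL each, and then given LPS (10 ng/mL) with IFN-γ (1 ng/mL), followed by TGF-β1 (10 ng/mL). The sample labels give 24 h for the LPS and IFN-γ step and 48 h for TGF-β1, whereas the methods give 12 h and either 24 or 48 h. There was 1 library per mouse, and all 6 libraries had received the same stimuli, so that genotype is the only factor the labels give and every value is from polarized cells. Because the deletion is present throughout development and differentiation, an effect on the precursor cells and one on the polarized macrophages cannot be told apart.

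SLC proteins are membrane transporters, grouped by sequence into numbered families, that carry nutrients, ions, metals, vitamins and metabolites across the plasma membrane and the membranes of organelles. Most work as facilitators that follow a gradient, as exchangers, or as cotransporters that use the gradient of sodium or protons. In macrophages they are known for feeding the change in metabolism that follows activation, for moving iron, zinc and copper into or out of phagosomes, and for taking up arginine and cystine.

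Library totals lay between 4400197 and 6096440 counts, and the Slc genes held 2.03% of all counts (between 1.97% and 2.07% of each library). Of the 215 genes, 166 had a mean of at least 100 counts and 26 of more than 1000. The counts of Ephx2 were 4, 2 and 1 with the deletion and 26, 49 and 57 without it. All 6 macrophage markers (Adgre1, Cd68, Csf1r, Itgam, Mertk and Lyz2) were present, at a summed level of 1590 to 2030 CPM (counts scaled by the normalized library size) in sEH-/- and 1470 to 1840 CPM in wild-type macrophages. Of the neutrophil markers 5 of 6 were in the table and 1, S100a8, passed the filter. Their sum was 27.2 to 31.7 CPM in sEH-/- and 17.4 to 21 CPM in wild-type libraries. The sum over 3 of 5 dendritic cell markers was 5.65 to 15.1 CPM against 11.9 to 21.3 CPM, and that over 5 of 5 stromal markers was 6.49 to 17.2 CPM against 4.18 to 59.9 CPM. None of these markers was called by edgeR, and their part in the results on transporters was not tested. Fewer cells with a transcript and less of it per cell cannot be told apart in these bulk libraries.

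Most Slc genes differed little between the genotypes. A fold change within the threshold used here was found in 191 of 215 (88.8%), against 87.9% of all tested genes. A few differed: the zinc importer Slc39a4 and the anion exchanger Slc4a2 were higher in sEH-/- macrophages, and the zinc importer Slc39a2, the thiamine transporter Slc19a2, the inositol transporter Slc5a3 and the multivitamin transporter Slc5a6 were lower. A gene was called where the edgeR quasi-likelihood test gave a Benjamini-Hochberg adjusted p below 0.05 over all tested genes and the fold change, sEH-/- over wild-type, was beyond 1.5 in either direction. This held for 6 of the 215 Slc genes (2.79%), against 2.61% of all tested genes. By direction, 2 Slc genes were called higher, against 1.51% of all tested genes, and 4 were called lower, against 1.1% of all tested genes. The share of Slc genes called was thus near that of all genes. The median log2 fold change of the Slc genes was -0.02 and that of all tested genes -0.00092, with 101 Slc genes above 0 and 114 below. The 3 sEH-/- libraries all lay above the 3 wild-type libraries in 21 Slc genes (9.77%; 11.8% of all tested genes) and all below them in 32 (14.9%; 14.5% of all tested genes).

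**Figure D1:**
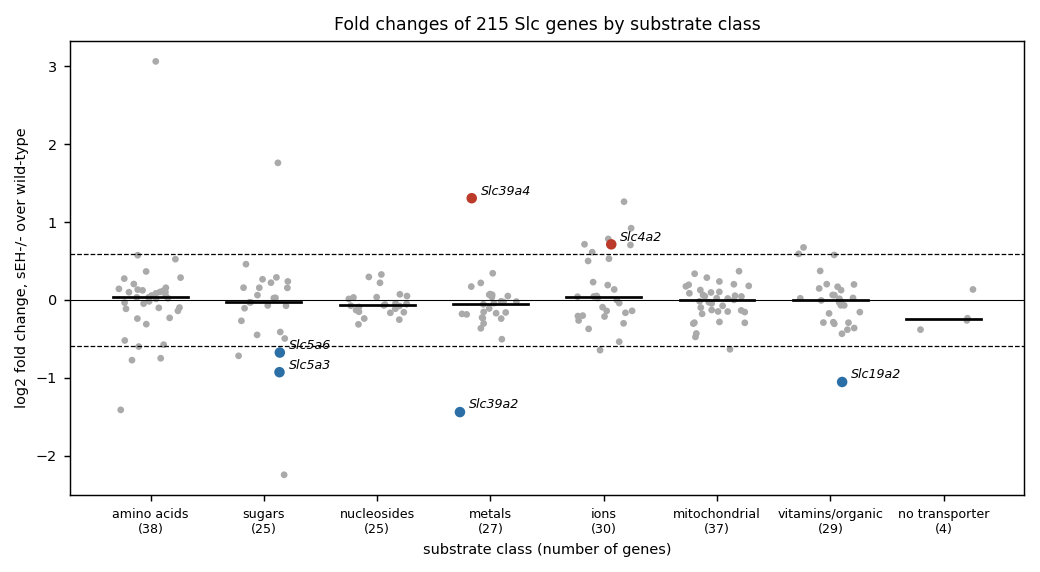
Log2 fold change (sEH-/- over wild-type) of each of the 215 Slc genes, 1 point per gene, by substrate class, with the median of each class as a black bar. Dashed lines mark the threshold of 1.5-fold in either direction. Of the 6 coloured and named genes, 2 lie above the upper line and 4 below the lower line, and 191 of the 215 genes lie between the lines.

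Zinc transporters included the called genes with the largest change in each direction. Slc39 proteins (ZIP) move zinc and related metals into the cytosol, and Slc30 proteins (ZnT) move zinc out of it, either out of the cell or into vesicles. Slc39a2 (ZIP2; ENSMUSG00000072572, mm10, chromosome 14, 51892889 to 51896745) is an importer at the plasma membrane. Its level was 13.5, 12.1 and 17.6 CPM in the sEH-/- libraries and 30.1, 47.5 and 38.2 CPM in the wild-type libraries. The highest sEH-/- library was well below the lowest wild-type library. The mean of 14.4 ± 2.87 CPM (SD, n = 3) was lower than that of 38.6 ± 8.72 CPM (SD, n = 3) in wild-type macrophages, with a log2 fold change of -1.44 (SE 0.19; edgeR adjusted p = 0.011). Without wild-type replicate 3 the adjusted p was 0.084. Slc39a2 shares 151 of its 3447 exonic bases with Mettl17 on the same strand, and Mettl17, which differed by -0.42 on the log2 scale (adjusted p = 0.095 by edgeR), was not called.

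Slc39a4 (ZIP4; ENSMUSG00000063354, chromosome 15, 76612383 to 76617384), the importer needed for zinc absorption in the gut, showed the opposite pattern. Its counts were 182, 105 and 98 in sEH-/- against 52, 66 and 47 in wild-type macrophages, or 31.1, 21.2 and 22.7 CPM against 11.4, 10.7 and 8.42 CPM. No sEH-/- library was within the wild-type range. The mean rose from 10.2 ± 1.57 CPM in wild-type to 25 ± 5.36 CPM in sEH-/- macrophages (SD, n = 3 each), with a log2 fold change of 1.31 (SE 0.20; edgeR adjusted p = 0.015). Leaving out wild-type replicate 2 or 3 gave an adjusted p of 0.071 or 0.11 (edgeR).

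The exporter Slc30a1 (ZnT1), which carries zinc out of the cell, passed the test on p but not on fold. It was found at 87.9, 71.4 and 71.9 CPM in sEH-/- and at 95.2, 123 and 110 CPM in wild-type libraries, which did not overlap. The log2 fold change was -0.50 (SE 0.11; edgeR adjusted p = 0.040). It was past both thresholds without sEH-/- replicate 1 (-0.62) and without wild-type replicate 1 (-0.59), and its adjusted p was 0.14 without sEH-/- replicate 2, 0.068 without sEH-/- replicate 3, and 0.19 or 0.16 with wild-type replicate 2 or 3 left out. The other 5 ZnT genes tested were not called, and 4 of them had a log2 fold change below 0. The libraries of Slc30a5 and Slc30a6, which load zinc into secretory compartments, did not overlap, with log2 fold changes of -0.17 and -0.24 (adjusted p = 0.15 and 0.17 by edgeR). These genes were chosen after their values were seen. Among the other 11 ZIP genes, the log2 fold change lay between -0.23 and 0.34, and none was called. Slc39a12, at the upper end of that range, had 0.36 to 1.71 CPM per library and overlapped between the genotypes.

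**Figure D2:**
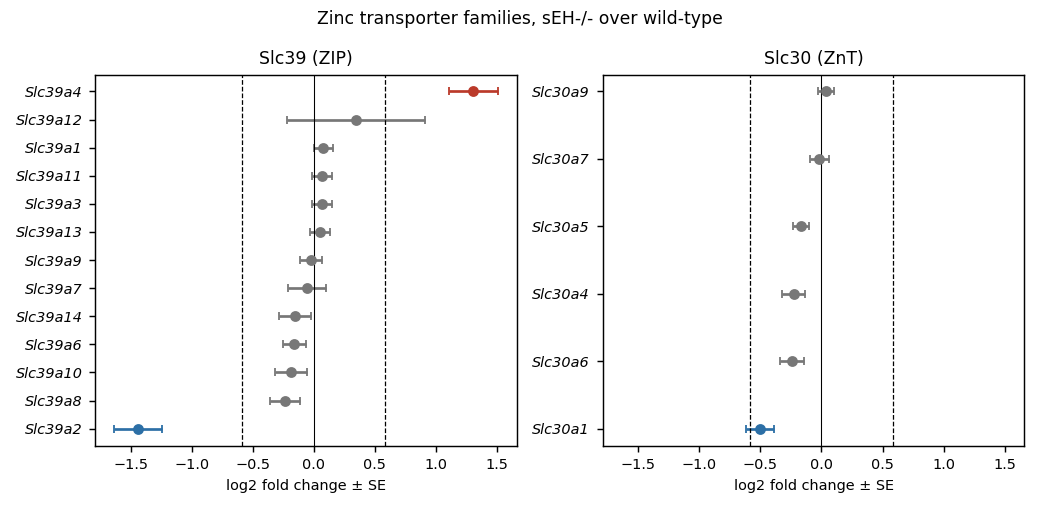
Log2 fold change (sEH-/- over wild-type) with its standard error for the 13 tested Slc39 (ZIP) and 6 tested Slc30 (ZnT) genes. Coloured points have an adjusted p below 0.05, and dashed lines mark 1.5-fold in either direction. Slc39a4 at 1.31 and Slc39a2 at -1.44 stand apart from the other ZIP genes, and Slc30a1 lies at -0.50.

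The metal transporters that macrophages are best known for were not called. Slc11a1 (Nramp1), the phagosomal exporter of iron and manganese, had 268, 285 and 308 CPM in sEH-/- and 310, 280 and 287 CPM in wild-type libraries, which overlapped. Slc40a1 (ferroportin), the iron exporter of the plasma membrane, had 45.2, 46.2 and 75.6 CPM against 57.2, 76.1 and 69.7 CPM, which gave a log2 fold change of -0.30 (SE 0.18; edgeR adjusted p = 0.36). The libraries of Slc11a2 (DMT1), the importer of ferrous iron, did not overlap and gave a log2 fold change of -0.18 (SE 0.065; edgeR adjusted p = 0.13). The copper transporters Slc31a1 and Slc31a2 had log2 fold changes of -0.04 and 0.17 (adjusted p = 0.82 and 0.28 by edgeR). Of all 27 metal transporter genes tested, 1 was called higher and 1 lower by edgeR (7.41% together, against 2.61% of all tested genes). In 18 the log2 fold change was below 0. The libraries lay apart in the lower direction in 7 (25.9%, against 14.5% of all tested genes) and in the higher direction in 1 (3.7%, against 11.8%). Of 16 tested genes of metal storage and handling outside the SLC families, none was called by edgeR or DESeq2 and 5 (31.2%, against 23.4% of all tested genes) had an unadjusted p below 0.05 by edgeR. The zinc-binding metallothioneins Mt1 and Mt2 were among them, with log2 fold changes of -0.21 and -0.30 (adjusted p = 0.20 and 0.18 by edgeR). The others were Cp, Tfr2 and Ncoa4, at 1.03, -0.50 and -0.26 (adjusted p = 0.10, 0.081 and 0.19 by edgeR). The libraries of Mt1, Cp and Tfr2 did not overlap between the genotypes, and those of Mt2 and Ncoa4 did.

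Other called genes carry vitamins or inositol. Slc19a2 (THTR1; ENSMUSG00000040918, chromosome 1, 164249046 to 164265385) takes up thiamine, the precursor of the cofactor of pyruvate dehydrogenase. It had 66.4, 41.6 and 53.1 CPM in sEH-/- and 86.8, 132 and 115 CPM in wild-type libraries. The ranges were separate, with sEH-/- replicate 2 the lowest and wild-type replicate 2 the highest. The mean was 53.7 ± 12.4 CPM in sEH-/- against 111 ± 22.9 CPM in wild-type macrophages (SD, n = 3 each), with a log2 fold change of -1.05 (SE 0.18; edgeR adjusted p = 0.018). Leaving out wild-type replicate 2 or 3 gave an adjusted p of 0.088 or 0.12 (edgeR). The other member of the family, Slc19a1, which carries reduced folate, gave 39.9, 24.4 and 26.7 CPM against 41.1, 41.2 and 37.3 CPM. These overlapped, and the gene was not called with all 6 libraries (log2 fold change -0.38, adjusted p = 0.20 by edgeR). Without sEH-/- replicate 1, Slc19a1 was called lower. It was chosen after its values were seen.

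Slc5a6 (SMVT; ENSMUSG00000006641, chromosome 5, 31036036 to 31048924) takes up biotin, pantothenate and lipoate with sodium. It had 27.5, 19.6 and 24.1 CPM in sEH-/- and 33, 44 and 36.7 CPM in wild-type libraries, and the genotypes did not overlap. The log2 fold change was -0.68 (SE 0.15; edgeR adjusted p = 0.043), the smallest change among the called genes. The adjusted p was 0.14 without sEH-/- replicate 2, 0.057 without sEH-/- replicate 3, and 0.21 or 0.16 with wild-type replicate 2 or 3 left out.

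Slc5a3 (SMIT1; ENSMUSG00000089774, chromosome 16, 92058322 to 92087473), of the same family, takes up myo-inositol with sodium, and is known for its rise under osmotic stress. Its level was 16.4, 12.7 and 15.1 CPM in sEH-/- and 26.2, 34.6 and 23.3 CPM in wild-type libraries. Every sEH-/- library lay below every wild-type library. The log2 fold change was -0.93 (SE 0.18; edgeR adjusted p = 0.028), with an adjusted p of 0.094 without sEH-/- replicate 2, and 0.15 or 0.10 with wild-type replicate 2 or 3 left out. It shares 159 of its 10913 exonic bases with Mrps6 on the same strand, whose log2 fold change was -0.18 (adjusted p = 0.54 by edgeR). Slc5a11, the third gene of the family that was tested, had 0.61 to 1.88 CPM per library.

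Slc4a2 (AE2; ENSMUSG00000028962, chromosome 5, 24423837 to 24440950) exchanges chloride for bicarbonate and so lowers the pH of the cell. Its level was 87.1, 100.1 and 63.5 CPM in sEH-/- and 51.9, 47.4 and 54.3 CPM in wild-type libraries. The sEH-/- libraries varied more than the wild-type libraries, and the lowest of them, replicate 3, was still above all 3. The mean was 83.6 ± 18.5 CPM against 51.2 ± 3.52 CPM (SD, n = 3 each), with a log2 fold change of 0.71 (SE 0.14; edgeR adjusted p = 0.030). The adjusted p was 0.076 without sEH-/- replicate 2, and 0.16 or 0.13 with wild-type replicate 2 or 3 left out. Slc4a2 overlaps Fastk, on the opposite strand, over 13.7% of its exonic bases. The libraries of Slc26a6, another chloride and bicarbonate exchanger chosen after its values were seen, were all lower in sEH-/- macrophages, with a log2 fold change of -0.37 (SE 0.096; edgeR adjusted p = 0.057). The sodium and bicarbonate cotransporter Slc4a7, also chosen in this way, overlapped between the genotypes (log2 fold change -0.26, adjusted p = 0.37 by edgeR). Of 30 genes for inorganic ions, Slc4a2 was the only one called by edgeR (3.33%, against 2.61% of all tested genes). The libraries of 6 lay apart in the higher direction (20%, against 11.8%) and of 2 in the lower direction (6.67%, against 14.5%).

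**Figure D3:**
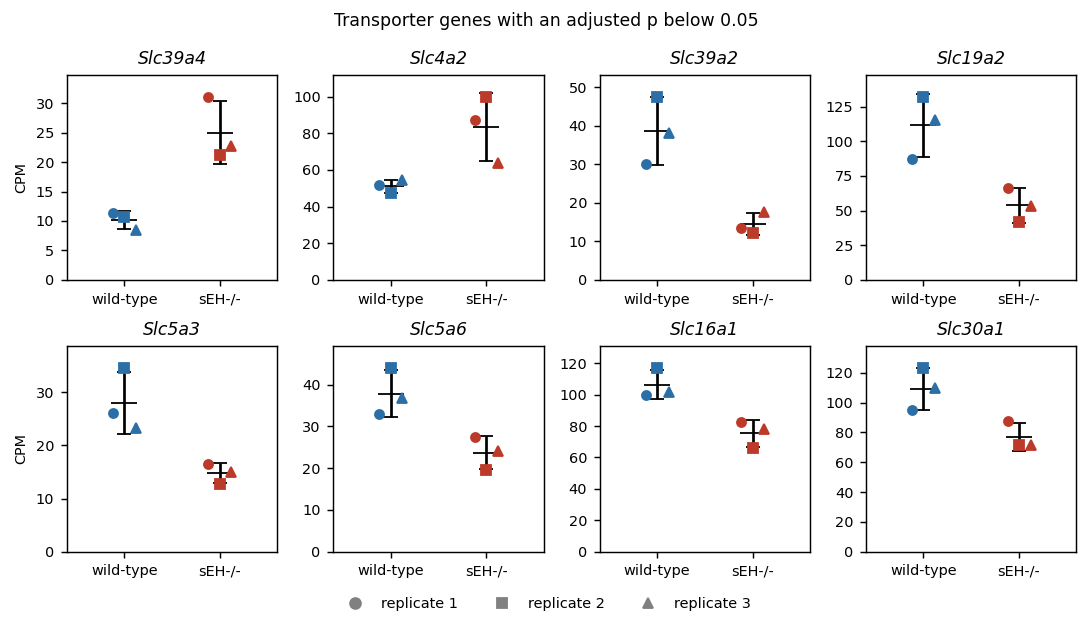
CPM in each library for the 6 called genes and for Slc16a1 and Slc30a1, which had an adjusted p below 0.05 and a fold change under the threshold. Each point is 1 library, with the replicate given by its shape, and bars give the mean ± SD (n = 3). In all 8 genes the 3 sEH-/- libraries lie apart from the 3 wild-type libraries, above them in Slc39a4 and Slc4a2 and below them in the other 6.

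The 250 bases before the start of the called genes were read from the RefSeq promoter table (GRCm38.p6), which holds 5 of the 6 genes. They were searched on both strands for the cores of the amino acid response element (TGATGNAA), the antioxidant response element (TGACNNNGC), the metal response element (TGCGCNC or TGCACNC), the interferon-stimulated response element and an NF-κB type site. None of these letters was found in the windows of Slc39a2, Slc19a2, Slc5a3, Slc5a6 or Slc4a2. All windows of Slc5a6 and Slc4a2 lie inside the gene coordinates given above. The bases before the outermost start of these genes were therefore not searched. In the window of Slc30a1, a known target of the zinc-sensing factor MTF1, there was 1 match to TGACNNNGC, at -82 to -74 from the start, and 1 to TGCACNC, at -43 to -37, both on the reverse strand. That of the lactate carrier Slc16a1 also matched TGACNNNGC, at -207 to -199, and TGCGCNC, at -52 to -46, on the reverse strand. The windows of Slc7a11 and Slc38a2 held matches to TGATGNAA and TGACNNNGC, respectively. Over all 32851 windows of the table the metal response element core was present in 21.4% and the antioxidant core in 10.2%. The same cores were present in 26% and 16.9% of 219 windows of the 164 tested Slc genes found in the table. A match of this kind is a description of the letters and not a site. The windows of the zinc importer Slc39a2 and the thiamine transporter Slc19a2, the called genes with the largest fall, are given beside that of Slc30a1, with matches in capitals. They lie at chr14:51893360-51893609, chr1:164248796-164249045 and chr1:191906531-191906780, all on the forward strand, and 5′ to 3′. That of Slc39a2 lies in an exon of a transcript with a retained intron, which GENCODE M21 starts further upstream, at 51892889. That of Slc30a1 ends at 191906780, past the gene start of 191906767 in the deposited coordinates. The positions of its matches count from the RefSeq start.
Slc39a2: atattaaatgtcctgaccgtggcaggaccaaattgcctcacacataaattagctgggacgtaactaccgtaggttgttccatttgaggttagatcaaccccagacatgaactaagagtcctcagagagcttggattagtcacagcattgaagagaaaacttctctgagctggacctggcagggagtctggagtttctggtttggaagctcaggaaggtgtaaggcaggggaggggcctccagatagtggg
Slc19a2: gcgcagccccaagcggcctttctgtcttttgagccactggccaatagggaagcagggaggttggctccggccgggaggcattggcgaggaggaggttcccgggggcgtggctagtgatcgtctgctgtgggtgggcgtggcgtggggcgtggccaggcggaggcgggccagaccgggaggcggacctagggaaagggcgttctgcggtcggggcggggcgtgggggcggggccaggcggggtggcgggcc
Slc30a1: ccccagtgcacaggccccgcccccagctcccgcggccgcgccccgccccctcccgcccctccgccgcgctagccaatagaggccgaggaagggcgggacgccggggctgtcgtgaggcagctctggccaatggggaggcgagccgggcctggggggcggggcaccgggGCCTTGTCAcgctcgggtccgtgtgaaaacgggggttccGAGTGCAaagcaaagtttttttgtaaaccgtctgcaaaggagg
The windows of Slc19a2 and Slc30a1 are rich in G and C (73.2% and 71.2%), with 23 and 25 CpG pairs, whereas that of Slc39a2 has 48.8% G and C and 3 CpG pairs.

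Transporters of amino acids and peptides were not called in either direction. Of 38 tested, 22 lay above 0 and 16 below on the log2 scale, 8 (21.1%, against 23.4% of all tested genes) had an unadjusted p below 0.05 by edgeR, and DESeq2 called 1, Slc1a2. Slc7a2 (CAT2), which brings arginine to nitric oxide synthase and arginase, was the second most abundant Slc gene per length, at 92.6 ± 16.4 CPM per kb of exon in sEH-/- and 94.8 ± 10.03 CPM per kb in wild-type macrophages (SD, n = 3 each). The genotypes overlapped. The cystine importer Slc7a11 (xCT) had 392, 257 and 345 CPM against 310, 323 and 279 CPM, and its partner Slc3a2 (CD98) 212, 222 and 221 CPM against 224, 208 and 208 CPM. Neither was called, with log2 fold changes of 0.12 (SE 0.13) and 0.03 (SE 0.068).

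Slc7a5 (LAT1), another light chain of CD98, which exchanges large neutral amino acids, was less abundant, at 15.7, 10.3 and 7.42 CPM in sEH-/- and 16.3, 26.3 and 15.2 CPM in wild-type libraries. It overlapped in 1 library and was not called (log2 fold change -0.77, SE 0.29, edgeR adjusted p = 0.14). Without sEH-/- replicate 1, Slc7a5 was called lower. Slc38a2 (SNAT2), the sodium-coupled importer of small neutral amino acids, had 93.9, 116 and 90.0 CPM against 77.4, 86.0 and 69.2 CPM, which did not overlap (log2 fold change 0.37, adjusted p = 0.084 by edgeR). The endolysosomal histidine and peptide transporter Slc15a4 was lower in all 3 sEH-/- libraries (log2 fold change -0.23, adjusted p = 0.073 by edgeR), and its relative Slc15a3 gave 0.20 (adjusted p = 0.26 by edgeR). The glutamine importer Slc1a5, the taurine importer Slc6a6 and the creatine importer Slc6a8 had log2 fold changes between -0.02 and 0.03. Slc7a7, which exports cationic amino acids, gave 0.13 (adjusted p = 0.38 by edgeR).

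Among 25 transporters of sugars and carboxylates, grouped by family number, Slc5a3 and Slc5a6 were the only genes called (8%, against 2.61% of all tested genes). In this class 12 genes (48%, against 23.4% of all tested genes) had an unadjusted p below 0.05 by edgeR. Slc16a1 (MCT1), which carries lactate and pyruvate with a proton, had 82.6, 65.8 and 77.9 CPM in sEH-/- and 100.03, 117 and 102 CPM in wild-type libraries. All sEH-/- libraries were below all wild-type libraries, and the log2 fold change of -0.49 (SE 0.099; edgeR adjusted p = 0.030) was under the fold change threshold. The adjusted p was 0.0995 without sEH-/- replicate 2, and 0.16 or 0.13 with wild-type replicate 2 or 3 left out. Slc16a3 (MCT4), the lactate exporter of glycolytic cells, lay the other way, at 234, 244 and 242 CPM against 233, 197 and 216 CPM, which gave a log2 fold change of 0.16 (adjusted p = 0.26 by edgeR). The main glucose importer Slc2a1 (GLUT1) had 248, 252 and 267 CPM against 268, 263 and 275 CPM and was not called (-0.07, adjusted p = 0.58 by edgeR). The other 4 Slc2 genes tested all had an unadjusted p below 0.05 by edgeR, and none was called. Of these, Slc2a3, Slc2a8 and Slc2a9 were chosen after their values were seen. They gave -0.45, -0.27 and 0.29 (adjusted p = 0.20, 0.073 and 0.16 by edgeR), and only the libraries of Slc2a8 did not overlap. The lysosomal Slc2a6 gave 0.27 (adjusted p = 0.20 by edgeR), the glucose-6-phosphate exchanger Slc37a2 gave 0.16 (adjusted p = 0.32 by edgeR), and Slc13a3, which imports dicarboxylates, was near 1 to 3 CPM (0.46, adjusted p = 0.55 by edgeR). The sugar transporter Slc50a1 was lower in all 3 sEH-/- libraries, and not called (-0.11, adjusted p = 0.41 by edgeR).

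None of 37 mitochondrial carriers (Slc25) was called by edgeR or DESeq2, and 11 (29.7%, against 23.4% of all tested genes) had an unadjusted p below 0.05 by edgeR. Slc25a37 (mitoferrin-1), which brings iron into mitochondria for heme and iron-sulfur clusters, had 365, 419 and 436 CPM in sEH-/- and 338, 292 and 314 CPM in wild-type libraries. The genotypes did not overlap, and the log2 fold change was 0.37 (SE 0.093; edgeR adjusted p = 0.054). Slc25a30, whose libraries were all lower in sEH-/- macrophages, gave -0.29 (SE 0.083; edgeR adjusted p = 0.069). Both genes, and the zinc and iron importer Slc39a14 (-0.15, adjusted p = 0.52 by edgeR), lie within 10 Mb of Ephx2 on chromosome 14, so that an effect of sEH and one of the chromosome segment carried with the deleted allele cannot be told apart. Slc39a2 is on the same chromosome, 14.2 Mb from Ephx2. The citrate carrier Slc25a1 (-0.10, adjusted p = 0.43 by edgeR) and the ADP and ATP carrier Slc25a5 (0.05, adjusted p = 0.80 by edgeR) overlapped between the genotypes.

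Of 25 transporters of nucleosides and nucleotide sugars, 17 had a log2 fold change below 0, none was called by edgeR or DESeq2, and 3 (12%, against 23.4% of all tested genes) had an unadjusted p below 0.05 by edgeR. The lysosomal nucleoside transporter Slc29a3 (-0.08) and the plasma membrane transporter Slc29a1 (-0.16, adjusted p = 0.25 by edgeR) were among the 17, as was Slc35f5 (-0.05). Of 29 transporters of vitamins, heme, lipids and organic ions, edgeR called only Slc19a2 (3.45%, against 2.61% of all tested genes), and 15 were below 0. The multivitamin transporter Slc5a6, also called, was counted by its family number with the sugar and carboxylate transporters. The heme exporter of phagolysosomes Slc48a1 (HRG1) was the most abundant Slc gene per length, at 106 ± 12.4 CPM per kb in sEH-/- and 104 ± 7.01 CPM per kb in wild-type macrophages (SD, n = 3 each). The folate and heme transporter Slc46a1 had 68.6, 45.4 and 35.9 CPM against 50.8, 46.9 and 51.4 CPM, so that the sEH-/- libraries reached beyond the wild-type range on both sides (0.03, adjusted p = 0.95 by edgeR). Slc46a3, a lysosomal transporter, gave -0.03 (adjusted p = 0.93 by edgeR), the ascorbate importer Slc23a2 -0.07 (adjusted p = 0.72 by edgeR), and the fatty acid transporter Slc27a1 0.15 (adjusted p = 0.30 by edgeR). Of the remaining ion transporters named for their abundance or their role in macrophages, the phosphate importer Slc20a1 gave -0.16 (adjusted p = 0.29 by edgeR), the mitochondrial sodium and calcium exchanger Slc8b1 -0.0011 (adjusted p = 0.996 by edgeR) and the endosomal proton exchanger Slc9a9 0.71 (adjusted p = 0.14 by edgeR). Slc9a9 had 11.1, 18 and 10.4 CPM in sEH-/- and 10.3, 6.65 and 7.35 CPM in wild-type libraries. Slc20a2, of the same family as Slc20a1, was chosen after its values were seen. It was lower in all 3 sEH-/- libraries, and not called (-0.54, adjusted p = 0.068 by edgeR). A further 4 genes have an Slc symbol without being transporters. Of these, the scaffold Slc9a3r1 (NHERF1) gave 0.13 (adjusted p = 0.30 by edgeR), and Slc4a1ap was lower in all 3 sEH-/- libraries (-0.26, adjusted p = 0.068 by edgeR).

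**Figure D4:**
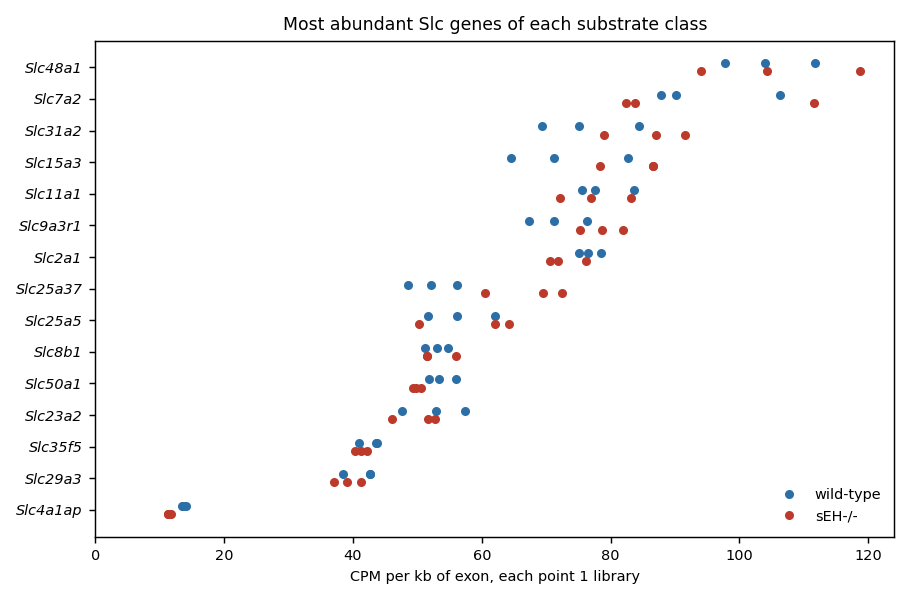
Level of the most abundant Slc genes per length in each substrate class (2 per class, and 1 for inorganic ions), in CPM per kb of exon, with 1 point per library. The highest are Slc48a1, at a mean of 106 in sEH-/- and 104 in wild-type macrophages, and Slc7a2, at 92.6 and 94.8. Slc25a37 is higher in all 3 sEH-/- libraries.

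Over the 34 Slc genes listed for a known role in macrophages, 17 lay above 0 and 17 below on the log2 scale, and none was called by edgeR, DESeq2 or limma-voom. By edgeR, 9 (26.5%, against 23.4% of all tested genes) had an unadjusted p below 0.05, and 2 (5.88%, against 4.01%), Slc16a1 and Slc30a1, an adjusted p below 0.05. Duplicate reads had been removed before counting, and the 33 Slc genes with more than 0.2 counts per exonic base had a median ratio of 1.22 between wild-type replicates 2 and 1, whose totals stood in a ratio of 1.32. Among genes with a mean above 50 counts, the ratio was 1.34 in 99 genes with 0.05 to 0.2 counts per exonic base and 1.39 in 47 genes with fewer. Between sEH-/- replicates 1 and 3, whose totals also stood in a ratio of 1.32, the ratios in the same order were 1.30, 1.45 and 1.49. In both pairs the abundant genes had the lowest ratio, below that of the totals. Its part in the results was not tested.

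A log2 fold change beyond 1 without a call was seen in 5 Slc genes, 4 of them with a mean below 20 counts. Slc1a2 (GLT-1), a glutamate importer best known from astrocytes, had 33, 7 and 3 counts in sEH-/- and 1, 2 and 2 counts in wild-type libraries, and most of its counts were thus in sEH-/- replicate 1. Its log2 fold change was 3.06 (SE 0.85), with an adjusted p of 0.065 by edgeR and 0.039 by DESeq2. Slc13a2, a citrate and dicarboxylate importer, had 10, 10 and 15 counts against 3, 3 and 5 (log2 fold change 1.76, adjusted p = 0.058 by edgeR). Slc24a5, a cation exchanger, had 22, 18 and 12 counts against 4, 4 and 15 (1.26, adjusted p = 0.14 by edgeR) and overlaps Myef2, on the opposite strand, over 39.5% of its exonic bases. The remaining 2 lay the other way: Slc16a14 had 7, 0 and 2 counts against 4, 23 and 21 (-2.24, adjusted p = 0.10 by edgeR), and the glycine importer Slc6a9 had 11, 7 and 17 counts against 15, 57 and 33 (-1.41, adjusted p = 0.095 by edgeR). In both, wild-type replicate 1 lay within the sEH-/- range. Slc1a2, Slc13a2 and Slc16a14 were among 7 genes that passed the filter with a mean of 5 counts or less in 1 genotype.

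The calls depended on single libraries. Without wild-type replicate 3 none of the 6 genes was called by edgeR, and without wild-type replicate 2 only Slc39a2 was. Without sEH-/- replicate 2, Slc4a2, Slc5a3 and Slc5a6 were not called, and without sEH-/- replicate 3 Slc5a6 was not. All 6 were called without sEH-/- replicate 1 and without wild-type replicate 1. The number of calls over all genes fell with the same libraries, from 360 to 6 without wild-type replicate 3 and to 25 without wild-type replicate 2. Without sEH-/- replicate 1 a further 7 Slc genes were called: Slc13a2, Slc16a6, Slc19a1, Slc20a2, Slc30a1, Slc7a1 and Slc7a5. Leaving out wild-type replicate 1 added 3 (Slc16a14, Slc30a1 and Slc6a9), and leaving out sEH-/- replicate 3 added Slc1a2. The size of the changes moved less: without any 1 library the log2 fold change of Slc39a2 lay between -1.59 and -1.26, that of Slc39a4 between 1.11 and 1.43, and that of Slc19a2 between -1.25 and -0.88. It lay between -1.05 and -0.74 for Slc5a3, between -0.81 and -0.54 for Slc5a6 and between 0.58 and 0.88 for Slc4a2.

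**Figure D5:**
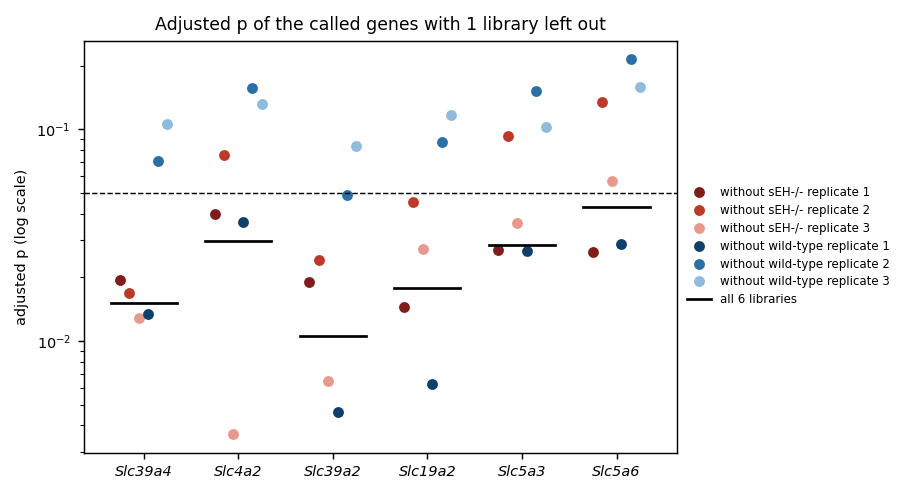
Adjusted p (log scale) of the 6 called Slc genes with all 6 libraries (black bar) and with each library left out (points, coloured by the library left out). The dashed line marks 0.05. Without wild-type replicate 3 all 6 genes lie above the line, and without wild-type replicate 2 all but Slc39a2 do.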

How the data were processed

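The 6 RNA-seq libraries of M2c-polarized macrophages were put into 2 groups of 3 mice by the genotype in the sample labels. The authors deposited raw counts per gene for all 6 libraries in 1 table, with no other column of values per sample (0 unused). The submitters' processing notes name Trimmomatic 0.39, STAR 2.7.7a, Picard 2.21.7, featureCounts 1.6.5, DESeq2 1.30.0 and the mm10 build. According to the methods, duplicates and multi-mapping, ribosomal and mitochondrial reads were removed and exonic reads were counted by strand, leaving out reads over several genes. Removed duplicates limit the counts of abundant, short genes, and removed multi-mapping reads those of genes with close copies, such as Slc25a5.

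The edgeR 4.0.16 quasi-likelihood test (R 4.3.3, TMM normalization, no covariates) was applied to the counts after a filter on a mean above 5 counts, which kept 13785 genes and 99.8% of the counts. The test was fitted and adjusted over all of these, and only the Slc genes are described. CPM values use TMM-normalized library sizes. The standard error (SE) of a log2 fold change was taken from its size and the F statistic (size over root F). The procedure was tested on simulated data. DESeq2 1.42.0, limma 3.58.1 (voom), RLE, no TMM factors, no filter, filterByExpr, no fold change threshold, glmTreat, leaving out each library and a replicate block were tried as alternatives. The logarithm of each total as covariate was added after seeing the data. Exonic lengths and overlaps came from GENCODE M21, with 19286 of 19309 identifiers found. Figures were drawn with matplotlib 3.10.9.

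Named genes were the called genes, the 2 most abundant per length in each substrate class, a list of transporters with a role in macrophages, genes within 10 Mb of Ephx2, those at the limit of the filter, and called genes of related lists. The genes and lists were chosen with earlier results of these data known. Counts of 5 or fewer were also named. Promoters of genes other than the called ones were chosen after their values were seen. The 6 lymphocyte and 6 erythroid markers were not analysed here. The promoter of Slc39a4 was not used here, and 1 gene that meets the rule is not reported here.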

Additional observations from a re-analysis of the deposited data

How the results depend on the processing

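Of the 6 called Slc genes, all stayed called with DESeq2, limma-voom, RLE normalization, no TMM factors, no filter and filterByExpr. DESeq2, no filter and the covariate of library total each added Slc1a2. Tested against the fold change threshold (glmTreat), 0 Slc genes higher and 0 lower were called, and 10 genes in all. Without a fold change threshold 553 genes in all were called. With that covariate 2 Slc genes were called higher (Slc39a4 and Slc1a2) and 2 lower (Slc39a2 and Slc19a2), with Slc4a2, Slc5a3 and Slc5a6 lost, and 171 genes in all. With 1 library left out, the Slc genes called higher numbered 0 to 3, those lower 0 to 10 and all genes 6 to 625. The causes were not tested.

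With the replicate number as a block, 2 Slc genes were called higher, 3 lower (Slc5a6 was lost, adjusted p = 0.080 by edgeR) and 234 genes in all. Nothing says that equal numbers pair the mice: the deviations of same-numbered libraries correlated at -0.082, -0.26 and -0.037, and no library correlated best with its own number.

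Of 64 genes followed through 14 alternatives, 13 changed sign, none of them called and all but Slc39a12 within 0.124 of 0 on the log2 scale. With the covariate, the log2 fold change was 0.0075 for Slc1a5, -0.015 for Slc25a5, -0.046 for Slc48a1 and -0.0074 for Slc6a6. It was -0.0056 for Slc48a1 without TMM factors and -0.027 for Slc46a1 with the block. For Slc8b1 it was 0.0062 with DESeq2 and RLE and 0.00067 with filterByExpr. With 1 library left out, it lay from -0.072 to 0.021 for Slc11a1, -0.099 to 0.043 for Slc1a5, -0.135 to 0.0067 for Slc23a2, -0.0084 to 0.161 for Slc25a5, -0.096 to 0.024 for Slc31a1, -0.094 to 0.781 for Slc39a12, -0.282 to 0.217 for Slc46a1, -0.155 to 0.078 for Slc46a3, -0.065 to 0.094 for Slc48a1, -0.024 to 0.106 for Slc6a6, -0.018 to 0.292 for Slc7a11, -0.180 to 0.055 for Slc7a2 and -0.032 to 0.036 for Slc8b1.

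With 3 libraries per genotype and a median standard error of 0.10 on the log2 scale, small differences were not detectable, and in the genes with few counts nor were larger ones.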

Other observations

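Among solute carriers with another symbol and among ABC transporters, the share called was near that of all tested genes. Of 31 tested genes of the solute carrier superfamily with another symbol, edgeR called 1 (3.23%, against 2.61% of all tested genes). This was Slco3a1, an organic anion transporter of prostaglandins. It had 123.2, 135 and 93.4 CPM in sEH-/- and 83.3, 56.0 and 59.0 CPM in wild-type libraries, which did not overlap. On the log2 scale it was higher by 0.84 (SE 0.16; edgeR adjusted p = 0.027). DESeq2 called 2 genes of this list.

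Of 32 tested ABC transporter genes, whose proteins are driven by ATP, edgeR called 1 (3.12%, against 2.61% of all tested genes). Abca8b, a lipid transporter, was lower at 25.7, 14.3 and 22.3 CPM in sEH-/- against 42.9, 69.3 and 48.4 CPM in wild-type libraries, with a log2 fold change of -1.37 (SE 0.22; edgeR adjusted p = 0.017). Abca7, a phospholipid transporter chosen after its values were seen, was higher in all 3 sEH-/- libraries (log2 fold change 0.54, SE 0.086, adjusted p = 0.017 by edgeR) and under the fold change threshold. In 8 ABC genes the sEH-/- libraries all lay above and in 8 all below the wild-type libraries, a share of 25% each, against 11.8% and 14.5% of all tested genes. By edgeR, 13 ABC genes (40.6%, against 23.4%) had an unadjusted p below 0.05, and 2 (6.25%, against 4.01%) an adjusted p below 0.05. Of 15 tested partners of the carriers and ion pumps that drive them, such as Bsg and subunits of the sodium and proton pumps, none was called by edgeR or DESeq2, and 2 (13.3%, against 23.4% of all tested genes) had an unadjusted p below 0.05 by edgeR.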
